A study of Mus musculus with 4 samples.

Results

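The calcium/calmodulin-dependent protein kinase (CaMK) genes described here are Camk1, Camk1d, Camk1g, Camk2a, Camk2b, Camk2d, Camk2g, Camk4, Camkk1 and Camkk2. They were chosen by symbol, and they are 10 of the 18492 genes listed in any library. Camk1 was included because it lies next to Ogg1 and was already known to be low in some of these libraries. Its values in every comparison, rank and count are therefore given as a description, and they support nothing by themselves. The hippocampus of 6-month-old mice on the C57BL/6 background was sequenced, giving 4 libraries that each stand for 1 genotype. The genotypes are Ogg1-/- (Ogg1 KO), Mutyh-/- (Mutyh KO), the loss of both genes (DKO, whose genotype label spells the first gene as Ogg) and wild type (WT). Ogg1 encodes the glycosylase that cuts 8-oxoguanine out of DNA, and Mutyh the glycosylase that removes adenine placed opposite it. The sex of the mice, the number of animals behind each library and the part of each gene that was deleted are not given in the sources used here. Because each genotype has a single library, differences could not be checked against replicates and no p-value was computed. Every 95% interval below covers counting error only.

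CaMK enzymes carry calcium signals from synapses to other proteins. Calcium entering a neuron binds calmodulin, and calcium-loaded calmodulin switches the kinases on. The CaMKK enzymes, encoded by Camkk1 and Camkk2, phosphorylate and so further activate the CaMKI enzymes (Camk1, Camk1d and Camk1g among them) and CaMKIV (Camk4). CaMKII (Camk2a, Camk2b, Camk2d, Camk2g) forms large rings that phosphorylate themselves, is very abundant in forebrain synapses and is needed for long-term potentiation. CaMKI is known for roles in axon and dendrite growth, and CaMKIV acts in the nucleus on the transcription factor CREB.

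In the RefSeq annotation of mouse assembly GRCm38.p6, Camk1 is the next gene after Ogg1 on chromosome 6 and lies on the opposite strand. The annotated far ends of both genes overlap, so the Camk1 start site is at the end of Camk1 that points away from Ogg1. The RefSeq promoter table gives 8 promoters, each from 250 bases before to 50 bases after a start site, for 7 of the 10 genes. The genes with no entry were Camk2a, Camk2g and Camk4. The promoters of Camk1 (GRCm38.p6, chr6:113343873-113344172, minus strand) and Camk1g (GRCm38.p6, chr1:193370233-193370532, minus strand) are shown because Camk1 is the gene that stood apart, while Camk1g is a close relative that did not. They are written 5′ to 3′ with capitals marking TGACG, the core of the CRE motif that CREB binds, searched on both strands.
Camk1: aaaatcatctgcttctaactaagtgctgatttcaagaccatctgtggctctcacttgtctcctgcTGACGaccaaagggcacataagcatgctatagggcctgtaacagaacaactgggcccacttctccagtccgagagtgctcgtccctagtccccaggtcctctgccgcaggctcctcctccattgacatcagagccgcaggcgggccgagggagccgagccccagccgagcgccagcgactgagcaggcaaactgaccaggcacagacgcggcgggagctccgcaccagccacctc
Camk1g: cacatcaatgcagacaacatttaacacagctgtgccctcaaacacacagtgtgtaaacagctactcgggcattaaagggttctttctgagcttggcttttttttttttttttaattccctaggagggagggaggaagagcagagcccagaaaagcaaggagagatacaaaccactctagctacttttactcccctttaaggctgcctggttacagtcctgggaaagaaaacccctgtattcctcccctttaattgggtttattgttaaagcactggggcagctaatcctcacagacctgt
TGACG stood once in the Camk1 window, 185 bases upstream of the start site, and once in the Camkk1 window, 166 bases upstream. None of the other 6 windows held it, the Camk1g window included. Over all 32851 promoters in the table, 20.8% held TGACG on either strand. The full palindrome TGACGTCA, which contains TGACG, was in none of the 8 windows and in 1.79% of all promoters. These matches are descriptions of letters and are not binding sites.

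The libraries held 17.02 to 18.20 Mreads (mega-reads) assigned uniquely to genes. All 67 marker genes for hippocampal neurons, glia and neighbouring tissues were listed in all 4 libraries. Ogg1 had 130 reads in Ogg1 KO, 81 in Mutyh KO, 103 in DKO and 94 in WT. Its read total was thus higher, not lower, in both libraries labelled as lacking it. The fold to WT was 1.47 in Ogg1 KO (1.12 to 1.94) and 1.09 in DKO (0.817 to 1.46). Its covered share of length was lower in those libraries, at 47.2% in Ogg1 KO and 46.4% in DKO. It was 81.5% in Mutyh KO and 86.7% in WT. Since strand was not stated, reads where Ogg1 and Camk1 overlap cannot be told apart. Mutyh had 15 reads in Mutyh KO and 20 in DKO, against 35 in Ogg1 KO and 39 in WT. The Mutyh KO library also had 10307 reads of Xist, the X-inactivation RNA, against 23 in Ogg1 KO, 29 in DKO and 14 in WT. Ddx3y, a gene on the Y chromosome, had 289 reads in Mutyh KO, against 724 in Ogg1 KO, 884 in DKO and 816 in WT. The Mutyh KO library thus held RNA of both Xist and Ddx3y. Comparisons that involve the Mutyh KO library also differ in sex-linked RNA. The genotype names below are those of the labels.

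Per gene length, the 10 genes spanned a wide range of levels, and CaMKII led it. Camk2a had 1033 RPKM in Ogg1 KO, 1038 in Mutyh KO, 1035 in DKO and 1135 in WT (RPKM, reads scaled to gene length and library total). It was the 5th, 7th and 7th highest of 13186 compared genes in Ogg1 KO, Mutyh KO and DKO, and the 3rd highest in WT. Camk2b came next, with 318 to 360 RPKM across the 4 libraries, followed by a group whose ranges overlap: Camkk1 (43.6 to 51.3 RPKM), Camk2g (42.2 to 48.4) and Camk1d (41.9 to 46.97). Camkk2 lay below them at 30.0004 to 32.8 RPKM. Camk4 (11.5 to 17.02) and Camk2d (11.7 to 14.1) overlap each other, and Camk1g had 9.46 to 11.2 RPKM. Camk4 lay above Camk2d in each knockout library and below it in WT, and Camk1g lay below both in all 4 libraries. Camk1 was the 7th of the 10 genes in Mutyh KO and in WT, and the lowest of the 10 in Ogg1 KO and in DKO.

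**Figure D1:**
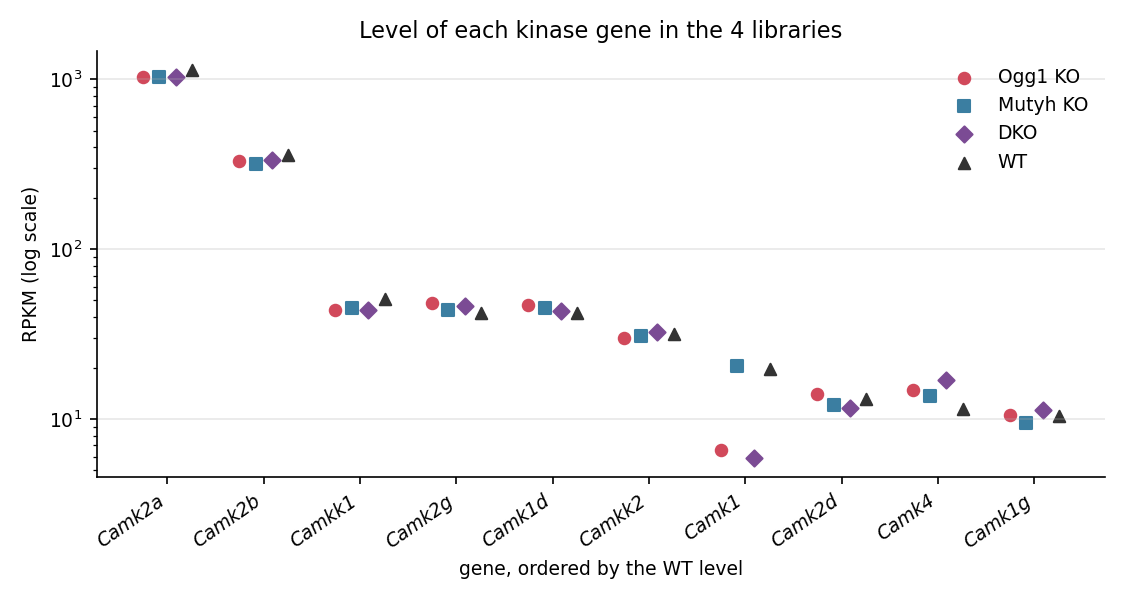
RPKM (log scale) of the 10 kinase genes, ordered by their WT level, with 1 point for each library (Ogg1 KO, Mutyh KO, DKO and WT). The points of Camk1 split most widely, with Ogg1 KO and DKO at 6.55 and 5.94 RPKM, against 20.5 in Mutyh KO and 19.6 in WT.

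Camk1 (gene ID 52163) was low in both libraries labelled as lacking Ogg1 and stood near the WT level in the library lacking Mutyh alone. It had 160 reads in Ogg1 KO, 503 in Mutyh KO, 155 in DKO and 510 in WT, or 6.55, 20.5, 5.94 and 19.6 RPKM. Ogg1 KO and DKO are the low libraries, and they do not overlap Mutyh KO and WT. The fold to WT was 0.334 in Ogg1 KO (0.278 to 0.400), 1.04 in Mutyh KO (0.920 to 1.18) and 0.303 in DKO (0.251 to 0.363). Where Mutyh was missing on both sides, in DKO against Mutyh KO, the fold was 0.290 (0.241 to 0.348). This comparison shares no library with Ogg1 KO against WT. It is still only a description, since Camk1 was chosen with its low values already known.

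Camk1 in DKO was within counting error of its level in Ogg1 KO. DKO stood at 0.906-fold of Ogg1 KO (0.722 to 1.14). On the log2 scale the DKO difference from WT departed from the sum of the Ogg1 KO and Mutyh KO differences by -0.20 (-0.57 to 0.16), an interval that includes 0. The gap between the Ogg1-null pair and the other libraries, taken as the lower of Mutyh KO and WT over the higher of Ogg1 KO and DKO, was 1.45 on the log2(RPKM + 1) scale. No other of the 13186 genes had a larger gap in that direction. Camk1 was chosen with its low values known, so its place in this order describes it and is no evidence by itself. The next was Snord32a, a small nucleolar RNA gene with a gap of 1.11 that rests on 1 read in Ogg1 KO and 0 in DKO, against 4 each in Mutyh KO and WT.

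Reads also covered less of Camk1 in the low libraries. Its covered share was 69.8% of 1434 bases in Ogg1 KO and 71.9% in DKO, against 98.5% in Mutyh KO and 95.9% in WT. That is 1001 and 1031 covered bases in Ogg1 KO and DKO, against 1412 in Mutyh KO and 1375 in WT. Coverage was at least 93.7% in every library for each of the other 9 genes, all with at least 400 reads. Coverage depends on the number of reads, and how far the smaller number of Camk1 reads accounts for its lower coverage was not tested. Which bases were uncovered is not something these values show.

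**Figure D2:**
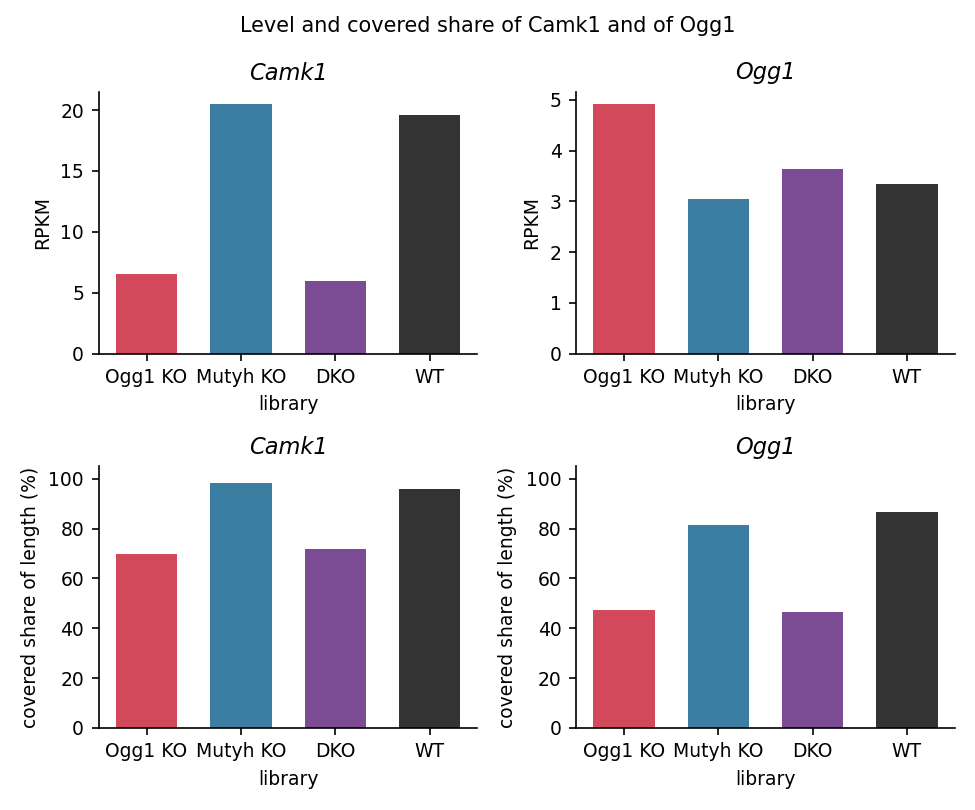
RPKM (upper row) and covered share of gene length in percent (lower row) of Camk1 and of Ogg1, with 1 bar for each library. Camk1 is low in both measures in Ogg1 KO and DKO, while Ogg1 is low in those libraries only in its covered share (47.2% and 46.4%).

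Choroid plexus transcripts set all 3 knockout libraries apart from WT. The summed level of 10 choroid plexus markers was 2913 RPKM in Ogg1 KO, 2859 in Mutyh KO, 1465 in DKO and 258 in WT, with none of the 10 at 0 in any library. Camk1 in the same libraries was at 6.55, 20.5, 5.94 and 19.6 RPKM, and the part of choroid plexus RNA in the Camk1 values was not tested. Summed excitatory neuron markers were 1683 RPKM in Ogg1 KO, 1603 in Mutyh KO, 1579 in DKO and 1771 in WT. Summed dentate granule cell markers were 72.6, 94.7, 84.6 and 89.0 RPKM in the same order, lowest in Ogg1 KO, and their part in the Camk1 values was not tested. In bulk tissue, fewer cells of a type and less RNA per cell cannot be told apart.

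The genes nearest Camk1 on the chromosome did not share its size of difference. Of the 3 annotated genes on either side of the Ogg1 and Camk1 pair, the pseudogene Gm20589 was listed in no library. Brpf1, a chromatin reader on the Ogg1 side, had 825 reads in Ogg1 KO, 880 in Mutyh KO, 925 in DKO and 924 in WT, a fold to WT of 0.9502 in Ogg1 KO (0.864 to 1.04) and 0.996 in DKO (0.909 to 1.09). Tada3, a transcriptional adaptor on the Camk1 side, had 571, 544, 581 and 620 reads, a fold to WT of 0.980 in Ogg1 KO (0.873 to 1.10) and 0.933 in DKO (0.831 to 1.05). Mtmr14, a lipid phosphatase gene, stood at 1.07-fold in Ogg1 KO and 1.05-fold in DKO. Cpne9, of the copine family, stood at 1.21-fold in Ogg1 KO (1.04 to 1.41) and 0.964-fold in DKO (0.821 to 1.13). Arpc4, an actin nucleation subunit, stood at 1.02-fold and 0.901-fold.

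Over the 23 genes listed around Ogg1, 21 had a mean of at least 1 RPKM and were compared, leaving out Cidec and Il17re. Without Ogg1 and Camk1, 19 genes remain. In Ogg1 KO their folds to WT ran from 0.696 (Rpusd3, a pseudouridine synthase family gene) to 1.33 (Thumpd3), and in DKO from 0.747 (Rpusd3) to 1.30 (Thumpd3). On the log2(RPKM + 1) scale, at limits of 25% higher or, by the same factor, 20% lower, 1 of the 19 was higher and 2 lower in Ogg1 KO than in WT (6.87% and 3.57% of all genes), 2 higher and 0 lower in Mutyh KO (8.24% and 1.92%), and 1 higher and 1 lower in DKO (5.87% and 2.55%). Creld1, which lies farther out, was at 0.739-fold in Ogg1 KO (0.681 to 0.803) and 0.876-fold in DKO (0.811 to 0.946). Thumpd3 was also high in Mutyh KO, at 1.47-fold (1.27 to 1.71), so the WT library is the low one for it. In DKO against Mutyh KO the 19 folds by reads ran from 0.754 (Fancd2) to 1.07 (Il17rc), beside 0.290 for Camk1. On the log2(RPKM + 1) scale 0 of the 19 were higher and 0 lower past these limits (1.22% and 4.14% of all genes). Fancd2 was at -0.22 on that scale, short of the 20% limit.

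**Figure D3:**
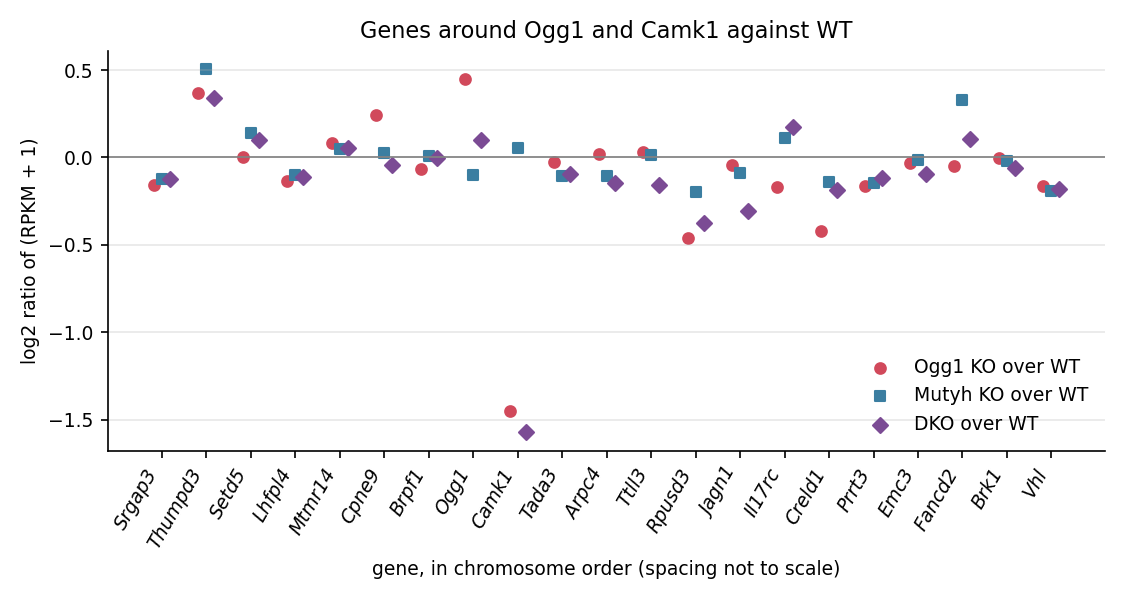
Log2 ratio of (RPKM + 1) to WT for the 21 compared genes around Ogg1, in chromosome order with spacing not to scale, with 1 point for each of Ogg1 KO, Mutyh KO and DKO over WT. Camk1 lies at -1.45 in Ogg1 KO and -1.57 in DKO, far below its neighbours, and at 0.06 in Mutyh KO.

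The other CaMKI genes did not differ in the way Camk1 did. Camk1d, also called CaMKI delta, had 5700 reads in Ogg1 KO, 5477 in Mutyh KO, 5657 in DKO and 5412 in WT, or 46.97, 44.8, 43.6 and 41.9 RPKM. It was highest in Ogg1 KO and lowest in WT, and the Ogg1-null libraries do not stand apart from the others. Its fold to WT was 1.12 in Ogg1 KO (1.08 to 1.16), 1.07 in Mutyh KO (1.03 to 1.11) and 1.04 in DKO (1.002 to 1.08), and in DKO against Mutyh KO it was 0.973 (0.937 to 1.01). Camk1g, CaMKI gamma, had 446 reads in Ogg1 KO, 400 in Mutyh KO, 505 in DKO and 467 in WT. Its fold was 1.02 in Ogg1 KO against WT (0.891 to 1.16) and 1.19 in DKO against Mutyh KO (1.04 to 1.36), so only one of these intervals lies above 1.

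Summed over Camk1, Camk1d and Camk1g, the level was 64.1 RPKM in Ogg1 KO, 74.7 in Mutyh KO, 60.8 in DKO and 71.99 in WT. Camk1 supplied 10.2% of that sum in Ogg1 KO and 9.77% in DKO, against 27.4% in Mutyh KO and 27.3% in WT. Camk1d and Camk1g together had 57.6 RPKM in Ogg1 KO, 54.3 in Mutyh KO, 54.8 in DKO and 52.4 in WT. The sum of the 3 genes was therefore 0.891-fold of WT in Ogg1 KO and 0.844-fold in DKO, and 0.813-fold in DKO against Mutyh KO. The higher Camk1d and Camk1g level in Ogg1 KO was smaller than the difference in Camk1. Pnck, which also encodes a CaMKI enzyme and is not among the 10 genes, had 32.6 RPKM in Ogg1 KO, 31.9 in Mutyh KO, 36.7 in DKO and 38.3 in WT. With Pnck added, Camk1 supplied 6.77% of the sum in Ogg1 KO and 6.09% in DKO, against 19.2% in Mutyh KO and 17.8% in WT. That larger sum was 0.878-fold of WT in Ogg1 KO and 0.884-fold in DKO, and 0.914-fold in DKO against Mutyh KO.

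CaMKII was slightly lower in each knockout library than in WT, mainly through its main subunits. Camk2a, the alpha subunit, had 87354 reads in Ogg1 KO, 88378 in Mutyh KO, 93537 in DKO and 102087 in WT, and Camk2b, the beta subunit, had 22868, 22012, 24487 and 26319. WT is the high library for both genes. Camk2a stood at 0.911-fold of WT in Ogg1 KO, 0.915-fold in Mutyh KO and 0.912-fold in DKO, and Camk2b at 0.925-fold, 0.884-fold and 0.926-fold. Of all reads, Camk2a alone took 0.513% in Ogg1 KO, 0.515% in Mutyh KO, 0.514% in DKO and 0.563% in WT. The ratio of Camk2a to Camk2b RPKM was 3.10 in Ogg1 KO, 3.26 in Mutyh KO, 3.10 in DKO and 3.15 in WT. Counting intervals of genes this abundant are narrow and say nothing of the spread between animals.

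In DKO against WT, the less abundant CaMKII subunits lay on opposite sides of 1. Camk2g, the gamma subunit, had 3050 reads in Ogg1 KO, 2778 in Mutyh KO, 3125 in DKO and 2833 in WT. Its fold to WT was 1.15 in Ogg1 KO (1.09 to 1.21) and 1.10 in DKO (1.04 to 1.16), and it was 1.06 in DKO against Mutyh KO (1.01 to 1.12). Camk2d, the delta subunit, had 1035, 888, 914 and 1024 reads in Ogg1 KO, Mutyh KO, DKO and WT, and both Mutyh-null libraries lay below both others. It stood at 0.826-fold in DKO against Ogg1 KO (0.755 to 0.904), 0.916-fold in Mutyh KO against WT (0.837 to 1.003) and 0.888-fold in DKO against WT (0.812 to 0.972). Camk2d was the 1 gene of the 10 with that order, beside 19.6% of all compared genes, and 0 of 10 were higher in both Mutyh-null libraries, beside 18.3%.

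Camk4, the nuclear kinase that acts on CREB, was higher than in WT in all 3 knockout libraries, most of all in DKO. It had 3120 reads in Ogg1 KO, 2893 in Mutyh KO, 3820 in DKO and 2580 in WT, or 14.9, 13.7, 17.02 and 11.5 RPKM. The fold to WT was 1.29 in Ogg1 KO (1.22 to 1.36), 1.18 in Mutyh KO (1.12 to 1.2499) and 1.47 in DKO (1.40 to 1.55). All 3 folds share the WT library, which is the lowest. Between knockouts it was 1.24-fold in DKO against Mutyh KO (1.18 to 1.31) and 1.15-fold in DKO against Ogg1 KO (1.09 to 1.20). The departure of DKO from the sum of the single losses was -0.05 on the log2 scale (-0.15 to 0.05). Summed markers of neighbouring tissue were also higher in the knockout libraries. The summed level of 5 thalamus markers was 28.6 RPKM in Ogg1 KO, 31.6 in Mutyh KO, 33.5 in DKO and 26.8 in WT, and 1, 4 and 3 of the 5 were past the 25% limit above WT in Ogg1 KO, Mutyh KO and DKO. Over 6 meningeal fibroblast markers the summed level was 134 RPKM in Ogg1 KO, 181 in Mutyh KO, 124 in DKO and 67.8 in WT. Past that limit were 4, 4 and 5 of the 6, beside the same shares of all genes. No marker of either list was at 0 in any library. Their part in the Camk4 values was not tested.

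The upstream kinases were close to WT or slightly lower. Camkk1, CaMK kinase alpha, had 2593 reads in Ogg1 KO, 2663 in Mutyh KO, 2752 in DKO and 3220 in WT. The WT library is the high one, and the knockout libraries lie close together. Its fold to WT was 0.857 in Ogg1 KO (0.814 to 0.903), 0.874 in Mutyh KO (0.830 to 0.920) and 0.851 in DKO (0.808 to 0.895). Camkk2, CaMK kinase beta, which also activates the energy sensor AMPK, had 2504, 2595, 2923 and 2828 reads in the same order. Its fold to WT ran from 0.942 in Ogg1 KO (0.893 to 0.995) to 1.03 in DKO (0.977 to 1.08).

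**Figure D4:**
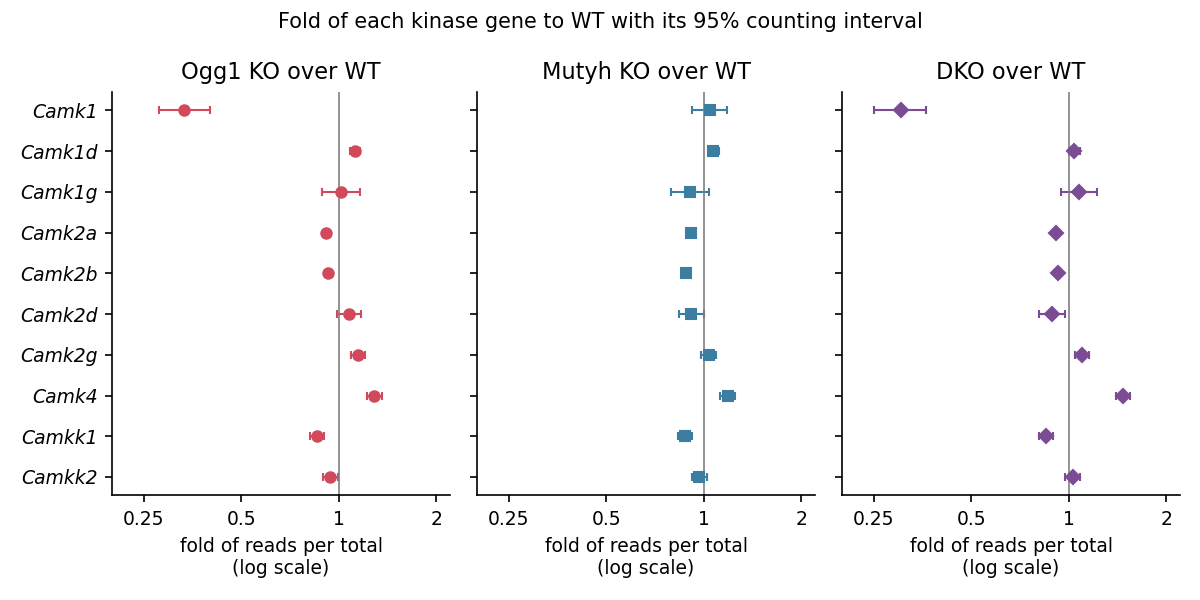
Fold to WT of reads per library total (log scale) for the 10 kinase genes in Ogg1 KO, Mutyh KO and DKO, with bars for the 95% counting interval. Camk1 is far below 1 in Ogg1 KO (0.334) and DKO (0.303), and Camk4 is the highest gene in all 3 panels (1.29, 1.18 and 1.47).

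Counts of genes past a size limit were made on the log2(RPKM + 1) scale, at 2-fold and at the 25% and 20% limits. The genes were chosen with these contrasts known, so nothing is read from the shares of all genes beside the counts. At 2-fold, 1 of the 10 genes (Camk1) was lower in Ogg1 KO than in WT, beside 0.212% of all compared genes. It was also the 1 gene at least 2-fold lower in DKO against WT (0.0455% of all genes) and in DKO against Mutyh KO (0.212%). None of the 10 was 2-fold lower in Mutyh KO against WT (0.091%). At the 25% limit, 1 gene (Camk4) was higher in Ogg1 KO (6.87% of all genes) and in DKO (5.87%). That count was 0 in Ogg1 KO under median-of-ratios scaling, so Camk4 sits at the edge of the limit there. At the 20% limit, 1 gene (Camk1) was lower in Ogg1 KO (3.57% of all genes) and in DKO (2.55%). In DKO against Mutyh KO 0 were higher (1.22%) and 1 (Camk1) lower (4.14%). In Mutyh KO against WT 0 of 10 were higher (8.24%) and 0 lower (1.92%) at these limits, and in DKO against Ogg1 KO 0 were higher (3.66%) and 0 lower (4.88%).

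By order alone, 3 of the 10 genes (Camk1, Camk2a and Camkk1) were lower in both Ogg1-null libraries than in both others, beside 14.4% of all compared genes, and 3 (Camk1g, Camk2g and Camk4) were higher, beside 13.3%. For Camk2a that order rests on 1035 RPKM in DKO against 1038 in Mutyh KO. Camk1 was the 1 gene of the 10 below in both by at least 20%, beside 0.205% of all genes, and by at least 2-fold, beside 0.0152%, which is 2 genes (Camk1 and Snord32a). The median log2 ratio to WT in Ogg1 KO was -0.03 for the 10 genes and 0.02 over all compared genes. In Mutyh KO it was -0.08 and 0.01, and in DKO -0.04 and -0.00.

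Genes with a pattern most like that of Camk1 were ranked by distance over the 3 log2(RPKM + 1) ratios to WT. The nearest 5 were Snord32a (distance 0.47), A230065H16Rik (1.01), Mir1188 (1.06), Gm7120 (1.08) and Snord22 (1.09). Of these, Gm7120 had 261 reads in Ogg1 KO, 584 in Mutyh KO, 382 in DKO and 590 in WT, and A230065H16Rik had 28, 47, 22 and 54. Gm7120 and A230065H16Rik were lower in both Ogg1-null libraries, by less than Camk1. The 3 others had at most 7 reads in any library.

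Genes that work with these kinases, 54 in 7 lists, were examined beside them, and 53 of the 54 were compared. In Ogg1 KO 1 gene passed the 25% limit above WT and 4 the 20% limit below it, beside 6.87% and 3.57% of all compared genes. In Mutyh KO 2 were higher and 0 lower, beside 8.24% and 1.92%. In DKO 2 were higher and 3 lower, beside 5.87% and 2.55%. These shares of all genes are also the ones to set beside the counts of the single lists below, and with so few genes in a list a count of 0 is near them. The median log2 ratio of the 53 genes to WT in Ogg1 KO was 0.01, while Mutyh KO gave -0.07 and DKO -0.05.

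Calm2, one of the genes that encode calmodulin, had 888 RPKM in Ogg1 KO, 833 in Mutyh KO, 849.7 in DKO and 833 in WT. Its fold to WT was 1.07 in Ogg1 KO (1.04 to 1.09), the highest of the 3 knockout libraries. In the list of calmodulin genes and calmodulin buffers (Nrgn, Pcp4, Gap43), 0 of 6 passed either limit against WT in any knockout. The CaMKII inhibitors Camk2n1 and Camk2n2 and the CaMK phosphatases Ppm1e and Ppm1f gave 0 of 4. Of these 4, Camk2n2 in Ogg1 KO was nearest the limit, with 68.0 RPKM in Ogg1 KO against 54.4 in WT, 1.249-fold by reads (1.16 to 1.35). Calcineurin, the calcium-dependent phosphatase that opposes CaMKII at synapses, and its regulators gave 0 of 7.

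Among other kinases of the CaMK group, Dapk1, a death-associated kinase, was at 0.763-fold of WT in Ogg1 KO (0.728 to 0.800), and Mylk, a myosin light chain kinase, at 1.43-fold in DKO (1.30 to 1.58). Of 12 nuclear targets and coactivators, Hdac4, a histone deacetylase that CaMK phosphorylation moves out of the nucleus, was at 0.749-fold in Ogg1 KO (0.672 to 0.835), and 0 of the 12 passed a limit in Mutyh KO or DKO, where 8.24% (Mutyh KO) and 5.87% (DKO) of all genes were higher and 1.92% and 2.55% lower. Among 10 compared substrates, Grin2b, the NMDA receptor subunit that docks CaMKII, had 9.06 RPKM in Ogg1 KO, 18.1 in Mutyh KO, 23.6 in DKO and 16.96 in WT. It was low in Ogg1 KO and high in DKO, and so did not follow Camk1. Prkaa2, an AMPK catalytic subunit and target of CaMKK2, was at 1.30-fold in Ogg1 KO (1.18 to 1.44).

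Of 6 CREB-responsive genes, 3 (Arc, Fos, Npas4) were past the 20% limit below WT in DKO, beside 2.55% of all compared genes, and 3 were not. In Ogg1 KO 1 (Npas4) was lower, beside 3.57%, and in Mutyh KO 2 (Fos, Sik1) were past the 25% limit above WT, beside 8.24%. Fos had 6.77 RPKM in Ogg1 KO, 9.49 in Mutyh KO, 3.08 in DKO and 6.58 in WT, and Nr4a1 had 31.1, 33.4, 23.1 and 28.4. In DKO against Mutyh KO 5 of 6 were past the 20% limit below, beside 4.14% of all genes, and Bdnf was higher, so Fos and Sik1 there combine a high Mutyh KO value with a lower DKO value. In DKO against Ogg1 KO 4 of 6 (Arc, Fos, Nr4a1, Sik1) were lower, beside 4.88%, and Bdnf was higher. Arc had 55.8 RPKM in Ogg1 KO and 33.5 in DKO, against 57.7 in WT, while Npas4 was past the 20% limit below WT in both. The part of Camk1 in the values of these genes was not tested. The genes of this list are known to respond together to neuronal activity, and low values of such genes in DKO were known before the list was written.

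**Figure D5:**
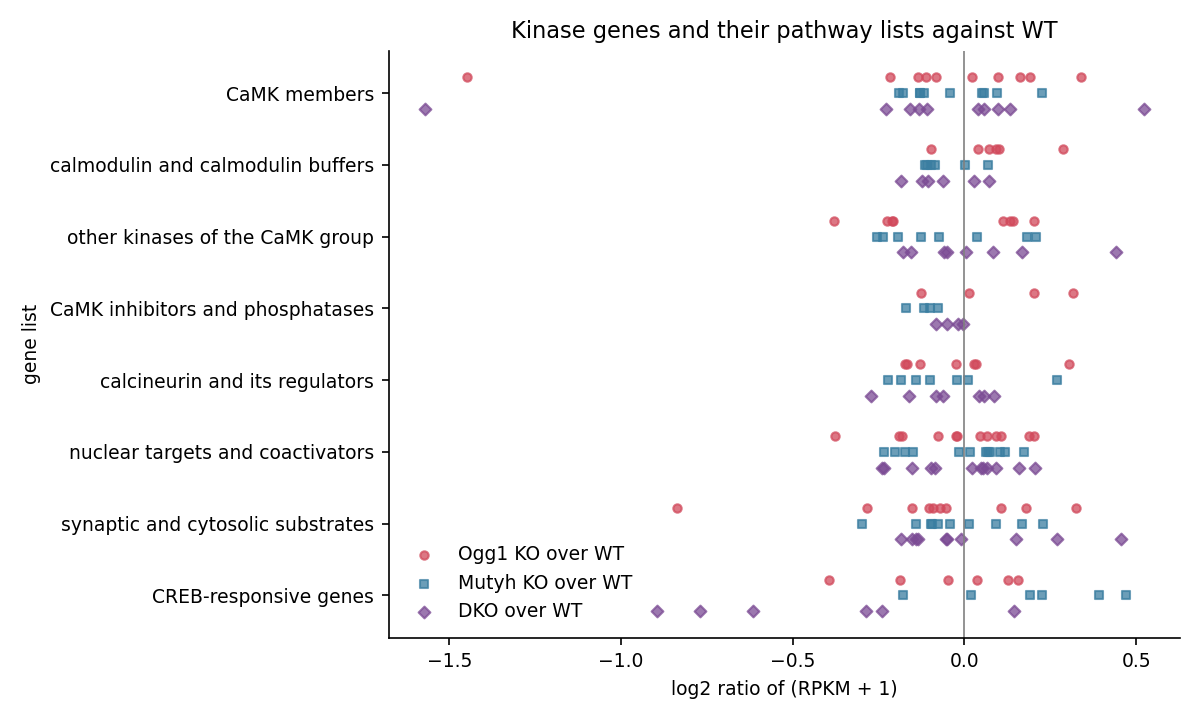
Log2 ratio of (RPKM + 1) to WT for the 10 kinase genes and for the genes of 7 pathway lists, with 1 point per gene for each of Ogg1 KO, Mutyh KO and DKO over WT. Camk1 (-1.45 in Ogg1 KO, -1.57 in DKO) lies below every other plotted gene, and the CREB-responsive list spreads to the left in DKO.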

How the data were processed

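Hippocampal RNA was sequenced in 4 libraries, 1 per genotype. Per the file headers, the deposited tables hold, for each gene, a count of uniquely assigned reads, with the library total; the totals equalled the sum of listed reads, and genes not listed were taken as 0. The deposited RPKM values equalled reads divided by length and total. Coverage was deposited by the authors as a percent, read from the column name in the file headers as the percent of gene length covered. Per the submitters' processing notes the build was mm9; no aligner, annotation or strandedness is given in the sources used here, so GRCm38.p6 served only for gene order and promoter letters. Rows with no symbol held 0.0179% to 0.0195% of reads.

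Of 18492 genes, 13186 had a mean of at least 1 RPKM and were compared on log2(RPKM + 1). Folds of named genes are ratios of reads per total with exact (Clopper-Pearson) 95% intervals for counting error; the interval of the departure from additivity uses a normal approximation to counting error. Named were all 10 members, list genes past the 25% or 20% limit first and others where a list needed describing, the 5 genes nearest Camk1, the 3 genes on each side of the Ogg1 and Camk1 pair, and both targeted genes. Xist and Ddx3y were named after their values were seen. The members, lists and limits were chosen with earlier results of these data known. Python 3.11.15, SciPy 1.17.1 and edgeR 4.0.16 (TMM scaling only) were used, and the calculation was tested on simulated data. The alternatives were other scalings (TMM, median of ratios, totals without ribosomal RNA and choroid plexus genes), a pseudocount of 0.1, no filter or a mean of at least 5 RPKM, a 1.5-fold limit and leaving out each library. Some list genes are not reported here.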

Additional observations from a re-analysis of the deposited data

Results flagged for a closer look

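In 3 genes the loss of 1 glycosylase went with opposite differences in both backgrounds, each with a counting interval that excludes 1. The share of all compared genes with such opposite differences was not computed, so nothing is read from this count. Counting intervals of genes with this many reads are narrow and can exclude 1 at small differences. These contrasts rest on 1 library a side, and the difference between them was not tested against the spread between animals. Camk1d was at 1.07-fold in Mutyh KO against WT and at 0.928-fold in DKO against Ogg1 KO. Camk2b was at 0.925-fold in Ogg1 KO against WT and at 1.05-fold in DKO against Mutyh KO. Camkk2 was at 0.942-fold in Ogg1 KO against WT and at 1.06-fold in DKO against Mutyh KO.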

How the results depend on the processing

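The Camk1 log2 ratios stayed within their counting intervals under the 5 alternatives run (3 scalings and 2 pseudocounts): -1.61 to -1.45 in Ogg1 KO against WT, -1.74 to -1.57 in DKO against WT and -1.79 to -1.63 in DKO against Mutyh KO. No value of the 10 genes turned sign where its interval excluded 0. For the other 9 genes, 16 values left their counting interval, all of Camk2a or Camk2b, and 254 did not. Counts that moved by over 1.5 times, or to or away from 0, follow; smaller moves are left out, except that kinase genes lower or higher in both Ogg1-null libraries numbered 2 each, against 3 each, under median-of-ratios scaling. The 1 kinase gene past the 25% limit above WT in Ogg1 KO became 0 under median-of-ratios scaling and 0 at 1.5-fold, and the 1 in DKO became 0 at 1.5-fold. Pathway genes higher in Ogg1 KO numbered 2 with a pseudocount of 0.1 and 0 under median-of-ratios scaling, against 1; in Mutyh KO 1 was lower under that scaling, against 0, and 1 higher at a mean of at least 5 RPKM, against 2. Of the 19 neighbours, 2 were higher in Ogg1 KO with no filter, against 1, and in Mutyh KO 1 at 5 RPKM and 1 under median-of-ratios scaling, against 2. With a pseudocount of 0.1, 2 were lower in DKO than in WT, against 1, and 1 in DKO against Mutyh KO (1 also with no filter), against 0. In these cases the cause was not tested. Leaving out each library, chosen after seeing the data, gave 3 to 4 kinase genes lower in the Ogg1-null libraries and 4 to 5 higher (5 without DKO, against 3 in all). Fewer libraries leave fewer values to order. With a pseudocount of 0.1, 3 of the 5 genes nearest Camk1 were shared. The order of values in both pairs has no pseudocount, so that alternative was not run for it. No paired analysis was possible because each genotype had 1 library.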
